A study of Mus musculus with 33 samples.

Results

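Intergenic regions lying 10 to 50 kb from the nearest protein-coding gene are described here across CH12 cells with and without ZMYND8. CH12 is a mouse B lymphoma line that carries surface IgM and can switch to IgA. The members were taken from 49745 numbered genomic regions that the deposited tables quantify beside annotated transcripts. Members were chosen by position and selected on their summed counts, with no use of a contrast between samples. A region was a member if it overlapped no RefSeq gene of GRCm38, if the nearest edge of a protein-coding gene was 10000 to 50000 bases away, and if its estimated counts summed to at least 50 over the 24 libraries. Windows around the Igh locus, around the Igl locus and around 1 locus on chromosome 6 were left out. This gave 2015 members of the 20889 numbered regions that had at least 50 counts, or of 6358 regions at that distance whatever their count. The lowest summed count inside the rule was 50 and the highest just outside it was 49.7. Distances just inside and just outside were 10008 and 9999 bases at the near limit, and 49991 and 50001 bases at the far limit.

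The 24 RNA-seq libraries came from 4 lines: parental wild-type (WT) CH12 cells, a WT clone, and the ZMYND8 knockout clones KO1 and KO2. Every line was cultured for 48 h in an unactivated and in an activated condition, and the labels do not name the stimulus. Each of the 8 groups had 3 libraries, so that each genotype had 6 in each state. A genotype therefore rests on 2 lines, of which both KO lines are single clones. The labels call the 3 libraries of a group biological repeats and say no more about how far apart they were grown, so the p-values measure the spread between these cultures.

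Enhancers and other open chromatin between genes are transcribed by RNA polymerase II into noncoding RNAs that are mostly short-lived, and total RNA libraries depleted of ribosomal RNA hold some of them. ZMYND8 is a chromatin reader with PHD, bromo and PWWP domains that binds modified histones and is known for restraining the activity of enhancers. In mature B cells, activation changes the use of many enhancers, among them those near NF-kB target genes such as Nfkbia.

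The members lay on 20 chromosomes and near 1572 different protein-coding genes. Their lengths ran from 251 to 16277 bases with a median of 1378, and the median distance to the gene was 21242 bases. A gene of any type, including lncRNA genes and pseudogenes, lay at a median of 12303 bases. Several regions named below lie closer to a lncRNA gene than to a protein-coding gene. Those near Rps3, Unc93a, Kif3c, Sp3, Hand1 and Slc22a12 are 2138, 2848, 4014, 4024, 4727 and 6165 bases from one. Of the 1608 members whose nearest gene has a known start, 924 lay upstream and 684 downstream; for the other 407 the side is not known, and no comparison by side was made.

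Sequence could be read for those members that a RefSeq promoter window (300 bases around a transcript's start, GRCm38.p6) overlaps. There were 7 such members, of which 4 passed the filter described below; none of the 4 was called in the 5 main comparisons, so these letters show what such a region looks like and carry no result. The longest 2 stretches are shown as examples of member sequence, 5′ to 3′ on the strand of that start, with an E-box motif in capitals. The first covers chr2:103935953-103936155 in the member near Lmo2, and the second covers chr9:62244134-62244350 in the member near Spesp1. Below them stand the promoters of 3 neighbour genes whose flanking members changed: Bhlhe41 (chr6:145865371-145865670), B4galt5 (chr2:167349129-167349428) and Nfkbia (chr12:55492598-55492897), all on the minus strand, with an NF-kB motif in capitals.
Member near Lmo2: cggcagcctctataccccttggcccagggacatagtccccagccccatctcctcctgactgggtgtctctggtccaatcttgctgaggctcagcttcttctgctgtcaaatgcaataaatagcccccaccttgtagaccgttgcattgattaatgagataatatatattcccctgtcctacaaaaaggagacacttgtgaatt
Member near Spesp1: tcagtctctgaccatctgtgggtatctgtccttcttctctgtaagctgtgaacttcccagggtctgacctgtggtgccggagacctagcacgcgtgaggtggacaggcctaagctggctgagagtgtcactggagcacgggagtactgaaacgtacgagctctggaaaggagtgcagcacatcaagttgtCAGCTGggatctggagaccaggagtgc
Bhlhe41 promoter: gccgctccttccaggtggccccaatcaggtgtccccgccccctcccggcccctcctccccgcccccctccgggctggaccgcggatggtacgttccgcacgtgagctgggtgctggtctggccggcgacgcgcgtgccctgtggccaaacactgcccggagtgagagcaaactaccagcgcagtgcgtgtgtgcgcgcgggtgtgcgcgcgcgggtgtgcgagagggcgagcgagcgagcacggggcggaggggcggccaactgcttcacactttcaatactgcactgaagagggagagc
B4galt5 promoter: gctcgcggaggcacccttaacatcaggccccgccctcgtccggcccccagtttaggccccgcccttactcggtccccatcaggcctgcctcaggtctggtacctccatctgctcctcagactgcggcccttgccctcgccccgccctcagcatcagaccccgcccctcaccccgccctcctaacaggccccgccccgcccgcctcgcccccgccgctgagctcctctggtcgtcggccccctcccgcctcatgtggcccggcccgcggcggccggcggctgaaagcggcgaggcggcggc
Nfkbia promoter: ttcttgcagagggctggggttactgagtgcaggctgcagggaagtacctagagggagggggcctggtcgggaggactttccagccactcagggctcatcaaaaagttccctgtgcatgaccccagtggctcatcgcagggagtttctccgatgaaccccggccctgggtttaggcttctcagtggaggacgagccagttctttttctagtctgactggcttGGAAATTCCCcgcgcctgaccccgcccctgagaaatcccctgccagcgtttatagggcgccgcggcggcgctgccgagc

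The promoters of Bhlhe41 and B4galt5 held 32 and 31 CpG dinucleotides at a GC content of 70.7% and 75%, and that of Nfkbia held 15 at 61%, against a median of 7 and 52.7% over 32851 RefSeq promoters of 300 bases. The Lmo2 and Spesp1 stretches held 2 and 6 CpG at 48.8% and 55.8% GC, where promoter windows cut to the same lengths had medians of 4 and 5 CpG. Motifs were searched on both strands as GAGGAAGT (PU.1 and ETS), ATTTGCAT (octamer), CAGCTG (E-box), TGANTCA (AP-1), TGTGGTT (RUNX) and GTCTAGAC (SMAD), and as the NF-kB and IRF consensus motifs. In the 5 sequences shown, the E-box of the Spesp1 stretch and the NF-kB motif of the Nfkbia promoter were the matches found. The E-box is in 11.3% of promoter windows of the Spesp1 stretch's length, and the NF-kB motif is in 1.47% of 300-base promoters. A match describes these letters only.

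The libraries held 28987854 to 34065813 estimated counts, of which 3.78% to 5.48% fell on numbered regions and 0.0740% to 0.265% on the members. The median member had 132 counts over all 24 libraries, while the member with the most counts had 79603 and the leading 5 held 26.1% of all member counts. Levels are given in CPM, read counts scaled to a common library size, with library sizes adjusted by the trimmed mean of M values (TMM). Summed over the members they were 1243, 1360 and 2836 in 3 libraries that stand apart, namely parental WT activated replicate 2, parental WT unactivated replicate 3 and WT clone unactivated replicate 2. In the other 21 libraries the sum lay between 802 and 1021 CPM. Regions inside B cell marker genes were detected: of 9 markers 6 hold a numbered region and 4 of these averaged at least 1 CPM, while Cd79b and Ms4a1 are among those that hold none. No T cell (1 of 8 with a region), macrophage (3 of 7) or fibroblast marker (3 of 7, with Col1a1 at 0) averaged 1 CPM. The summed level of the B cell markers was 18.9 to 46.4 CPM in WT and 36.2 to 52.4 CPM in KO libraries when unactivated, and 27.9 to 49.6 and 48.2 to 67.5 CPM when activated. Lck, the T cell marker that holds a region, was higher in every KO than in every WT library, at 0.190 to 0.335 CPM in WT and 0.424 to 0.751 CPM in KO libraries when unactivated, and 0.153 to 0.298 and 0.335 to 0.818 CPM when activated; Cd3e, Cd4 and Cd8a hold none. The summed fibroblast markers went with activation from 0.0370 to 0.443 CPM up to 0.756 to 1.66 CPM in WT, and from 0.0909 to 0.240 CPM up to 0.551 to 0.988 CPM in KO libraries, without overlap. The summed macrophage markers lay between 0.301 and 1.23 CPM in all 4 groups, which overlapped. The part of these shifts in the results below was not tested. Regions inside Zmynd8 were at 1.54 ± 0.255 CPM in WT and 1.89 ± 0.394 in KO unactivated cells (SD, n = 6), and at 2.44 ± 0.436 and 3.49 ± 0.679 when activated. The labels do not say which part of the gene was altered, so these regions do not check the knockout.

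**Figure D1:**
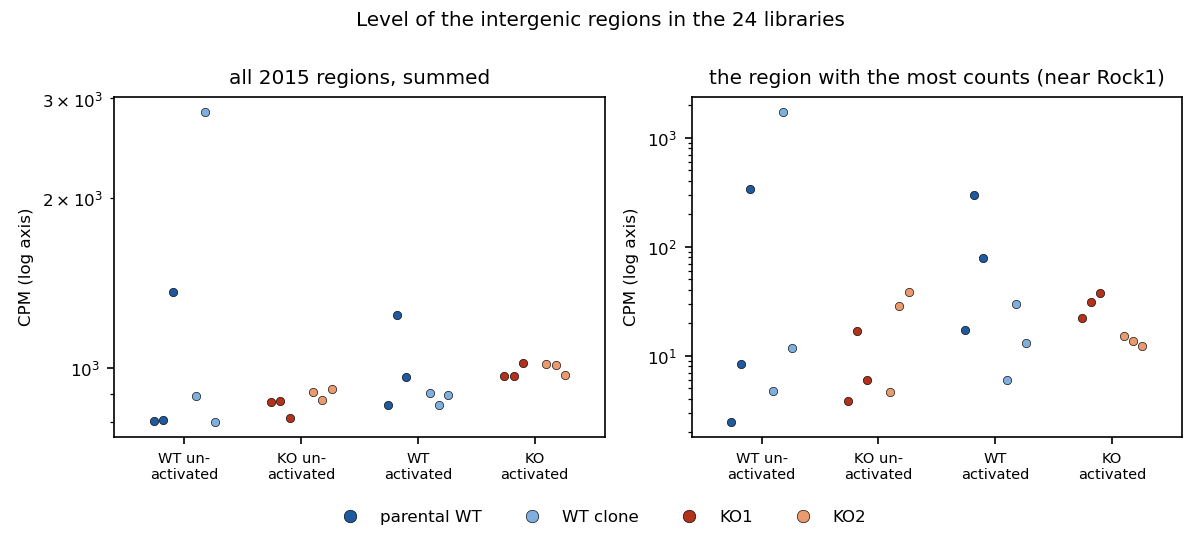
CPM summed over the 2015 regions (left) and CPM of the region with the most counts, near Rock1 (right), on log axes, for each of the 24 libraries by genotype and state, colored by line. In 3 WT libraries the sum is 1243 CPM or more, and the Rock1 region spans 2.47 to 1709 CPM.

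The member with the most counts had its highest levels in those 3 libraries. It lies 11254 bases from Rock1, a protein kinase gene, at chr18:10051709-10053147. Its lowest, median and highest levels were 2.47, 10.1 and 1709 CPM in unactivated WT, 3.85, 11.4 and 38.2 CPM in unactivated KO, 6.04, 23.4 and 299.5 CPM in activated WT, and 12.1, 18.6 and 37.9 CPM in activated KO libraries. The groups overlapped throughout, and no comparison called this region. Without it the sum over the members was 791 to 1126 CPM in unactivated WT and 807 to 901 CPM in unactivated KO libraries. With the leading 5 members taken out, the sums were 694 ± 70.1 CPM in unactivated WT and 683 ± 30.8 in unactivated KO cells (SD, n = 6), against 751 ± 26.9 and 842 ± 24.2 in activated cells. These sums are given without a test.

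The other 4 of the 5 members with the most counts lay near Iltifb, Klra5, Minpp1 and Virma. The region near Iltifb, an interleukin-22-related gene (chr10:118249121-118251484, 1656 bases from a pseudogene), had medians of 80.1 CPM (68.1 to 142) in unactivated WT and 81.7 CPM (70.2 to 93.9) in unactivated KO libraries, and of 52.4 CPM (50.0 to 66.9) and 55.0 CPM (49.1 to 62.1) in activated ones. It fell with activation in both genotypes, by 0.80 ± 0.15 on the log2 scale in WT (SE, adjusted p = 0.000569) and by 0.57 ± 0.15 in KO lines (adjusted p = 0.00857). Taken alone, 1 of 2 WT lines and 0 of 2 KO lines made this call. The region near Minpp1, an inositol polyphosphate phosphatase (chr19:32441564-32442048, 877 bases from a pseudogene), fell likewise by 0.40 ± 0.11 (adjusted p = 0.0173) and by 0.50 ± 0.11 (adjusted p = 0.00378). Here 0 of 2 WT lines and 1 of 2 KO lines made the call alone. The region near Klra5, a natural killer cell lectin receptor (chr6:129932743-129933458), was at 101 and 136 CPM in the unactivated WT libraries that stand apart and at 31.0 to 42.5 CPM in the other 4, against 28.5 to 50.9 CPM in activated WT libraries. It fell in WT lines by 0.89 ± 0.29 (adjusted p = 0.0392), with no call in either WT line alone. The region near Virma, a component of the m6A writer complex, was called in none of the 5 main comparisons. None of these 4 regions differed between KO and WT lines beyond the threshold.

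Low counts limited what could be tested. Of the 2015 members, 958 passed the filter on low counts and 1057 did not, so nothing is said here about how those 1057 respond. Split by length into 3 equal parts, the filter kept 73.9% of the longest, 42.3% of the middle and 26.5% of the shortest members. Calls rest on edgeR's quasi-likelihood test, at a p under 0.05 after Benjamini-Hochberg adjustment over all 61074 targets tested. In simulated libraries of the unactivated KO against WT comparison, 7% of 2-fold and 72% of 4-fold changes in members were called. There, 100 members at each fold were changed among 58182 targets, whereas 7.16% of all targets were called in the data. The adjustment depends on how many targets change, so these shares do not give the sensitivity in the data. Small changes may have been missed.

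The first question was how the members differ between KO and WT lines in unactivated cells. In the KO lines, 44 of the 958 tested members were higher and 32 were lower, with regions upstream of Bhlhe41, B4galt5, Zfr and Slc22a12 among those that rose. The 44 are 4.59% of the members, where 3.13% of all 61074 targets were called higher, and the 32 are 3.34%, where 4.03% of all targets were called lower. Of all 11264 tested numbered regions, 3.75% were called higher and 2.64% lower. The median log2 change was 0.02 over the tested members and −0.04 over all targets. In 29 of the higher and 6 of the lower members, the 6 KO libraries did not overlap the 6 WT libraries; these are 3.03% and 0.626% of the members, where 1.77% and 2.02% of all targets were called without overlap. Among the higher members 43 had the same sign and 6 were called in each of the 4 pairings of 1 KO with 1 WT line. Among the lower, 31 had the same sign in all 4 and none was called in all 4. Without the 3 libraries that stand apart, the counts were 39 higher and 29 lower. With counts summed per line, the 2 lines of a genotype are the replicates. In that fit 2 of 1833 tested members were called higher and 0 lower (edgeR, 80 lower at an unadjusted p under 0.05). Calls were few over the whole table too, with 165 of 78950 targets higher and 202 lower. Of the rises named below, the region 16978 bases upstream of Bhlhe41 kept its call (adjusted p = 0.0144). Those near B4galt5, Neu3, Slc22a12 and Zfr did not (adjusted p = 0.0717 to 0.150), nor did the region 27294 bases upstream of Bhlhe41. In RNA from many cells, transcription in more cells and more RNA per cell cannot be told apart. The count of higher members was 29 without KO2 unactivated replicate 1, and that of lower members was 20 without parental WT unactivated replicate 2, 21 without KO1 unactivated replicate 2 or 3, and 21 without KO2 unactivated replicate 3.

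**Figure D2:**
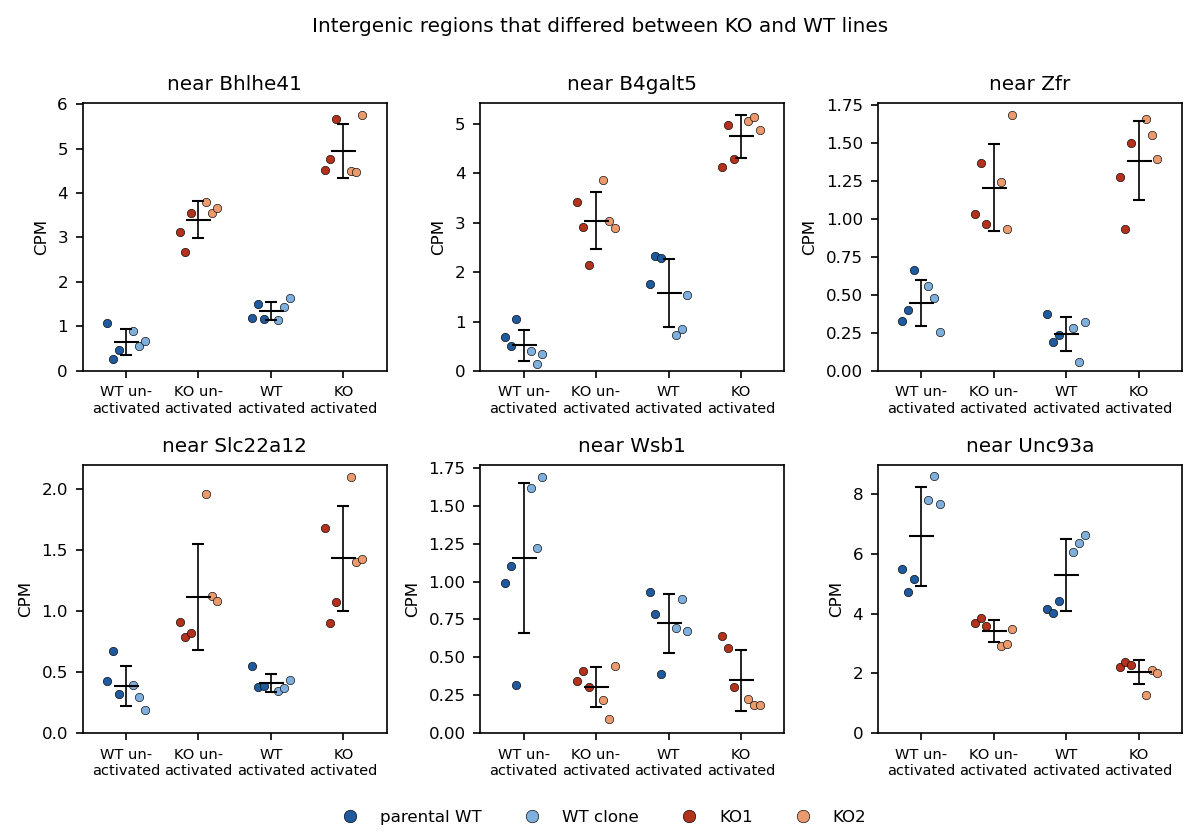
CPM of 6 regions in each library (points, colored by line), with the mean and SD of 6 libraries per genotype and state as bars. Near Bhlhe41, the KO libraries sit between 2.67 and 5.75 CPM and the WT libraries between 0.268 and 1.63 CPM; near Unc93a the KO libraries sit below the WT libraries.

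The region 16978 bases upstream of Bhlhe41 (chr6:145882398-145884249, 1852 bases) separated the genotypes in both states. Bhlhe41 encodes a basic helix-loop-helix repressor that takes part in the development of B-1a cells. Its lowest, median and highest levels were 0.268, 0.612 and 1.09 CPM in unactivated WT and 2.67, 3.55 and 3.80 CPM in unactivated KO libraries. In activated cells they were 1.14, 1.31 and 1.63 CPM in WT and 4.48, 4.64 and 5.75 CPM in KO libraries. The KO and WT libraries did not overlap in either state. The log2 change was 2.36 ± 0.24 unactivated (SE, adjusted p = 2.36e-06) and 1.88 ± 0.23 activated (adjusted p = 2.70e-05), called in all 4 line pairings in each state.

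The other 3 tested members with Bhlhe41 as their nearest gene were higher in KO lines in both states. These were picked out after their values were seen, and no test is given for the group. The region at chr6:145887591-145888281 rose from 0.142 ± 0.0787 to 0.579 ± 0.127 CPM when unactivated (log2 change 2.00 ± 0.36, adjusted p = 0.00111) and from 0.150 ± 0.0629 to 0.865 ± 0.238 CPM when activated (2.54 ± 0.36, adjusted p = 9.31e-05). The region at chr6:145892714-145895174, 27294 bases upstream, rose by 1.12 ± 0.20 and 1.20 ± 0.20 on the log2 scale (adjusted p = 0.00111 and 0.000533). The fourth region lies on the other side, 10571 bases downstream of the gene at chr6:145845246-145847672, and rose by 1.54 ± 0.38 and 2.05 ± 0.39 (adjusted p = 0.0165 and 0.00189). The single numbered region inside Bhlhe41 had no counts in any of the 4 groups, so the files' regions give no level for the gene itself.

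Near B4galt5, a galactosyltransferase of the Golgi, the change depended on the position. The member 31448 bases upstream (chr2:167380626-167384388) had 0.148, 0.449 and 1.04 CPM in unactivated WT and 2.15, 2.97 and 3.86 CPM in unactivated KO libraries (lowest, median, highest). In activated cells it had 0.727, 1.66 and 2.33 CPM in WT and 4.12, 4.92 and 5.15 CPM in KO libraries. Here too the genotypes were separate when unactivated (log2 change 2.67 ± 0.24, adjusted p = 5.61e-07) and when activated (1.67 ± 0.23, adjusted p = 8.21e-05). The WT lines also differed from each other here, the WT clone being lower than parental WT (log2 difference −1.17 ± 0.24, adjusted p = 0.0130).

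The next member towards B4galt5, at 25674 bases (chr2:167374852-167376837), rose by 0.94 ± 0.18 unactivated (adjusted p = 0.00168) and 0.67 ± 0.17 activated (adjusted p = 0.0230). The members at 17964 and 12282 bases were not called, with 1.18 ± 0.302 against 1.39 ± 0.154 CPM and 0.337 ± 0.136 against 0.380 ± 0.0413 CPM in unactivated WT and KO cells. Together the 4 form a chain with gaps of at most 10 kb, of which 2 were called in each state. The numbered region inside B4galt5 had 0.274 ± 0.172 CPM in WT and 0.243 ± 0.0948 in KO unactivated cells, which differ by less than the spread between libraries.

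**Figure D3:**
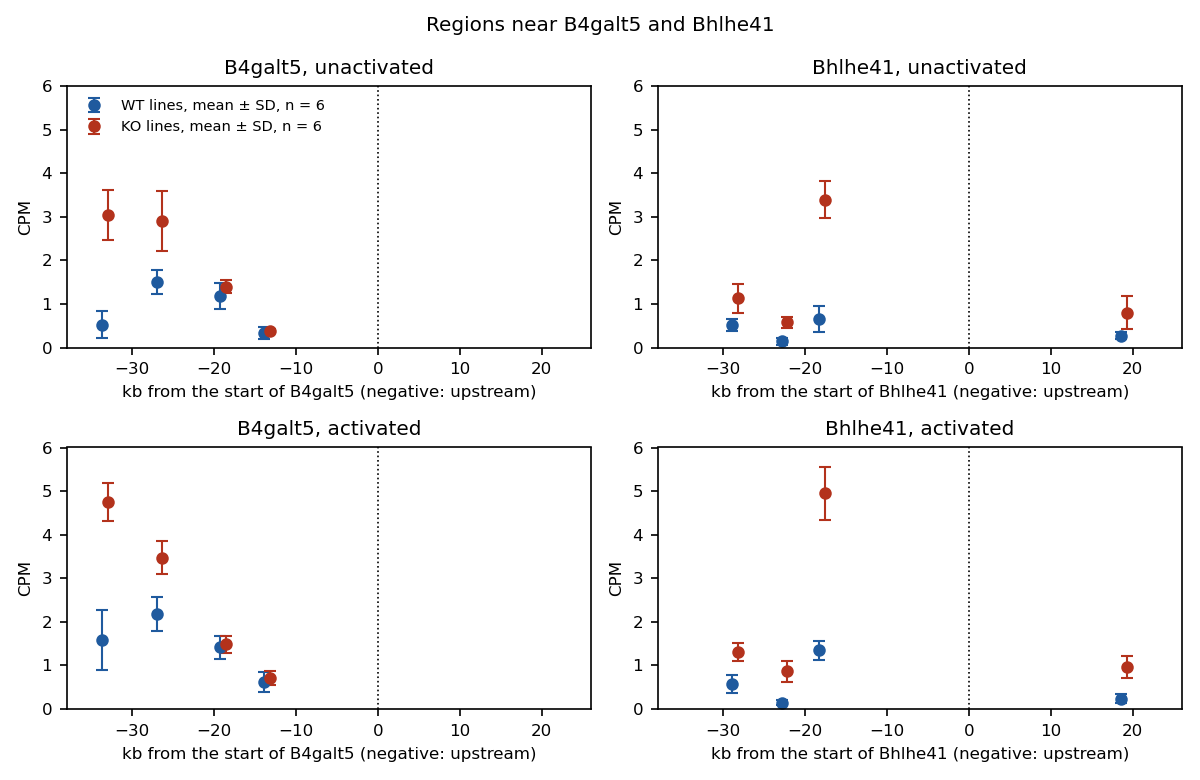
Mean CPM ± SD (n = 6 libraries) of the tested regions nearest to B4galt5 (left) and Bhlhe41 (right) against their distance in kb from the gene's start, for WT and KO lines, unactivated (top) and activated (bottom). KO levels exceed WT levels at the far B4galt5 regions and at all 4 Bhlhe41 regions, while the nearer B4galt5 regions coincide.

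Beside these, 3 members were among the 6 largest rises in unactivated KO cells (of 15 rises that averaged 1 CPM or more in KO or WT cells and had the same sign in all 4 pairings). The region 15321 bases downstream of Neu3, a plasma membrane sialidase (chr7:99793969-99796113), had 0.185 to 0.396 CPM in WT and 1.03 to 1.59 CPM in KO libraries, a log2 change of 2.08 ± 0.37 (adjusted p = 0.000987). The region upstream of Slc22a12, a urate transporter gene (chr19:6558138-6560955), had 0.191 to 0.670 CPM in WT and 0.789 to 1.96 CPM in KO libraries (log2 change 1.53 ± 0.24, adjusted p = 0.000382). The region upstream of Zfr, a zinc finger RNA-binding protein gene (chr15:12102439-12104392), had 0.255 to 0.664 CPM in WT and 0.937 to 1.69 CPM in KO libraries (1.42 ± 0.31, adjusted p = 0.00632). In all 3 the genotypes did not overlap. The Zfr call was made in none of the 4 pairings alone and was lost against parental WT alone.

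The 6 largest falls in unactivated KO cells, of 19 that met the same criteria, were less uniform. The region 35692 bases upstream of Wsb1, a SOCS-box protein gene (chr11:79290401-79293544), had 0.316, 1.16 and 1.69 CPM in WT and 0.0937, 0.324 and 0.445 CPM in KO libraries (lowest, median, highest), a log2 change of −1.87 ± 0.34 (adjusted p = 0.00148). Parental WT replicate 3, at 0.316 CPM, lay within the KO range. In activated cells the region was lower in KO as well (−1.20 ± 0.34, adjusted p = 0.0399). The region upstream of Iqgap1, a scaffold of the cell cortex (chr7:80828335-80833538), had 2.03, 3.11 and 4.65 CPM in WT and 1.11, 1.28 and 1.58 CPM in KO libraries without overlap (−1.26 ± 0.23, adjusted p = 0.00114). The regions near Rps3 (chr7:99508083-99508630) and Hand1 (chr11:57846405-57847537) fell by 1.26 ± 0.33 and 1.12 ± 0.30 on the log2 scale (adjusted p = 0.0215 and 0.0285), and each lost its call in 12 of 24 alternatives, including either KO line alone.

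The falls near Zfp395 and Olfr726 went with the libraries that stand apart. The Zfp395 region (chr14:65340892-65344481) was at 26.9 CPM in WT clone unactivated replicate 2 and at 7.52 CPM in parental WT unactivated replicate 3, but at 0.198 to 0.893 CPM in the other 4 WT libraries, against 0.212 to 0.922 CPM in KO libraries. Its log2 change of −3.53 ± 0.95 (adjusted p = 0.0272) was −0.17 at its smallest among the alternatives, and it lost its call in 15 of 24 alternatives, including without either of these libraries. Near Olfr726 (chr14:50060567-50063059) the change of −1.83 ± 0.52 (adjusted p = 0.0393) was likewise lost in 15 of 24 alternatives, including without either library, with a smallest size of −0.40.

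Among activated cells the calls lay mostly on one side. In KO lines 74 tested members were higher and 11 were lower, with regions near Slco4a1, Zfr, Bhlhe41, Pdhx, Slc22a12 and Ercc6l2 showing the 6 largest rises of 40 that met the criteria for naming. Without the 3 libraries that stand apart, 61 were higher and 12 lower. The 74 are 7.72% of the members, where 3.5% of all targets were called higher, and the 11 are 1.15%, where 3.02% of all targets were called lower. Of all 11264 tested numbered regions, 5.66% were called higher and 1.35% lower, so the one-sided split was not particular to the members. Scaled, filtered and adjusted on numbered regions alone, the counts were 70 higher and 30 lower, and the members' median log2 change went from 0.12 to −0.004. Of all 10888 regions in that fit, 683 were called higher and 399 lower. Over all tested regions the median was 0.09 in the main fit and −0.03 with that scaling. With counts summed per line, 7 of 1833 tested members were called higher and 0 lower (edgeR, 48 lower at an unadjusted p under 0.05). Of all 78950 targets in that fit, 167 were called higher and 99 lower. The regions near Slco4a1, Zfr, Bhlhe41, Pdhx and Ercc6l2 kept their calls there (adjusted p = 0.0271 to 0.0490), while that near Slc22a12 did not (adjusted p = 0.131). The genotypes did not overlap in 46 of the higher and 5 of the lower members, 4.80% and 0.522% of those tested, where 2.05% and 1.61% of all targets were called without overlap; 10 higher and 1 lower were called in all 4 line pairings. The count of lower members was 7 without parental WT activated replicate 2, WT clone activated replicate 1 or KO1 activated replicate 1, and 6 without KO1 activated replicate 2 or KO2 activated replicate 1.

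The Zfr region again separated the genotypes, with 0.061, 0.261 and 0.377 CPM in activated WT and 0.932, 1.45 and 1.66 CPM in activated KO libraries (log2 change 2.48 ± 0.32, adjusted p = 4.17e-05). The Slc22a12 region had 0.348 to 0.551 CPM in WT and 0.901 to 2.10 CPM in KO libraries (1.78 ± 0.24, adjusted p = 7.25e-05). Both were called in all 4 line pairings. The region upstream of Slco4a1, an organic anion transporter gene (chr2:180441902-180445995), had 0.0595 to 0.346 CPM in WT and 1.12 to 1.72 CPM in KO libraries (2.69 ± 0.57, adjusted p = 0.00491), but was called in 1 of the 4 pairings. Its unactivated WT values ran up to 0.924 CPM in WT clone replicate 2.

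Ercc6l2 encodes a helicase-like protein of DNA end joining. The member 10288 bases upstream of it (chr13:63790900-63800691, 9792 bases) had 2.35, 2.94 and 3.70 CPM in activated WT and 6.84, 9.07 and 17.3 CPM in activated KO libraries, a log2 change of 1.75 ± 0.23 (adjusted p = 4.63e-05). Unactivated libraries of both genotypes lay between 0.301 and 0.857 CPM, with a difference of 0.04 ± 0.24 (adjusted p = 0.977). The member 38757 bases downstream of Pdhx, a pyruvate dehydrogenase component (chr2:102980750-102982298, with Cd44 on the other side at 79081 bases), had 1.16, 1.57 and 1.86 CPM in activated WT and 3.62, 5.06 and 6.99 CPM in activated KO libraries (1.78 ± 0.31, adjusted p = 0.000875). Regions inside Cd44, a hyaluronan receptor, had 13.2 ± 2.2 CPM in activated WT and 10.3 ± 1.4 in activated KO cells, and regions inside Pdhx had 1.11 ± 0.13 and 0.733 ± 0.22; these gene values carry no test. Levels of this kind could be had for the neighbours of 213 of the 958 tested members. That is too few for a comparison of members with their neighbour genes, so none is reported here. Levels given for single genes describe these genes only and do not stand for the other members.

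Only 3 of the 11 lower members met the level and sign criteria for naming. The region 23163 bases upstream of Unc93a, a membrane protein gene (chr17:13166943-13167514), had 4.03, 5.25 and 6.65 CPM in activated WT and 1.27, 2.15 and 2.39 CPM in activated KO libraries. It fell by 1.35 ± 0.11 on the log2 scale (adjusted p = 2.26e-07), and in unactivated cells by 0.91 ± 0.11 (adjusted p = 1.88e-05). The 2 WT lines differed here too, the WT clone being higher by 0.62 ± 0.11 (adjusted p = 0.00442). The region near the predicted gene Gm8267 (chr14:44670047-44674104) had 1.07 to 2.02 CPM in WT and 0.0909 to 0.828 CPM in KO libraries (−1.68 ± 0.40, adjusted p = 0.0117), with no call for either KO line alone.

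The third was the member 18732 bases downstream of Nfkbia, the gene of the NF-kB inhibitor IkBa (chr12:55464319-55470677). It had 2.12, 2.40 and 3.20 CPM in activated WT and 1.33, 1.62 and 1.72 CPM in activated KO libraries, without overlap. The log2 change of −0.67 ± 0.19 (adjusted p = 0.0390) lay close to the threshold and was lost in 18 of 24 alternatives, among them each of the 12 that leave out 1 library (log2 change −0.86 to −0.47 over all alternatives, adjusted p up to 0.368).

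KO and WT libraries of the 2 states are separate, so calls can be set side by side. Higher in KO lines in both states were 24 members, which are 54.5% of the 44 and 32.4% of the 74. Over all targets, 46.9% of those higher when unactivated and 41.8% of those higher when activated were called in both. Lower in both were 6 members, 18.8% of the 32 and 54.5% of the 11, beside 38.6% and 51.5% over all targets. Of all tested, 2.51% of members and 1.47% of targets were higher in both states, and 0.626% and 1.56% were lower in both. No member was called in opposite directions in the 2 states. Regions beyond 50 kb were called higher in 8.22% (unactivated) and 9.93% (activated) of 584 tested, regions under 10 kb in 4.34% and 4.96% of 1128, and regions touching a gene in 3.13% and 5.09% of 8568; these shares are descriptions with no test of the difference.

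**Figure D4:**
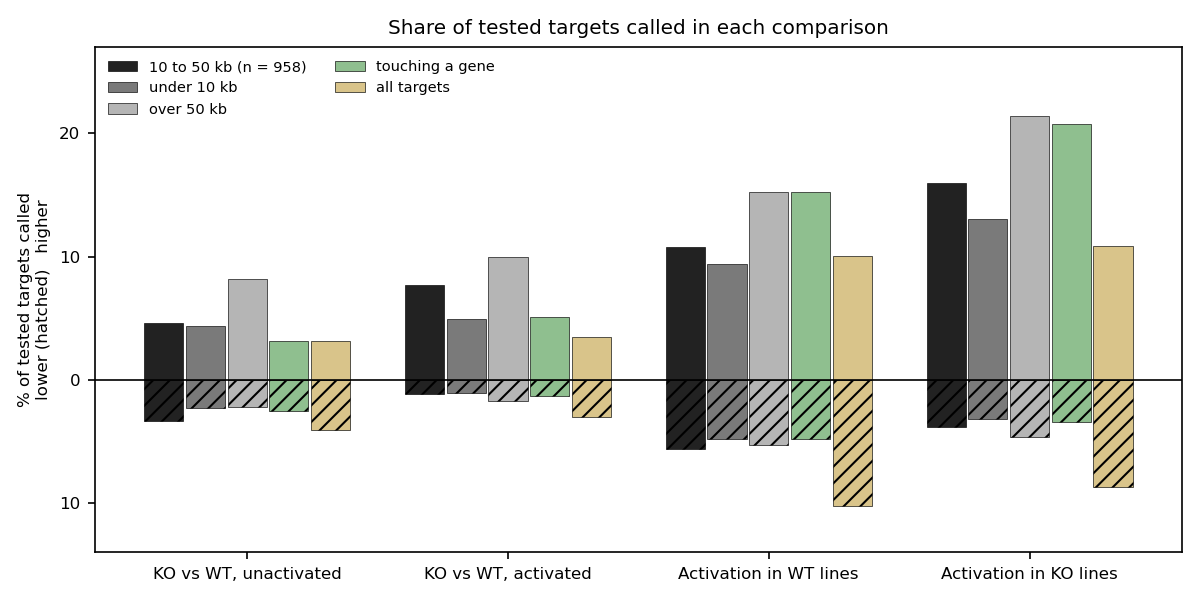
Percentage of tested targets called higher (plain bars, up) and lower (hatched bars, down) in 4 comparisons, for the regions 10 to 50 kb from a gene, other classes of numbered regions, and all 61074 targets. With activation in KO lines, 16.0% of the 958 regions were higher and 3.86% lower. The shares were 20.8% and 3.44% for regions touching a gene, and 10.9% and 8.73% for all targets.

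Activation was compared next, within each genotype. In WT lines 103 tested members rose and 54 fell, and in KO lines 153 rose and 37 fell. Among the largest rises were those near Huwe1, Spsb1, Gprin3, Psma6 and Ercc6l2, and falls included regions near Noct, Zeb2 and Scd1. In WT lines the 103 are 10.8% of the members beside 10% of all targets called higher, and the 54 are 5.64% beside 10.2% called lower. In KO lines the 153 are 16.0% beside 10.9%, and the 37 are 3.86% beside 8.73%. Of all 11264 tested numbered regions, 14.3% rose and 4.91% fell in WT lines, and 19.6% rose and 3.52% fell in KO lines. More rises than falls were thus seen in numbered regions as a whole, and the members rose less often than these. Without the 3 libraries that stand apart, 103 rose and 52 fell in WT lines and 167 rose and 42 fell in KO lines.

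The balance of rises and falls depended on the scaling. On numbered regions alone it was 75 higher and 95 lower in WT and 95 higher and 115 lower in KO lines. Of all 10888 regions in that fit, 1254 rose and 1164 fell in WT lines, and 1508 rose and 1248 fell in KO lines. Regions as a whole thus still had more rises than falls there, and the members did not. The members' median log2 change was 0.19 in WT and 0.31 in KO lines in the main fit, and −0.04 and −0.05 with scaling on regions alone. All tested regions had medians of 0.23 and 0.34 in the main fit and of −0.009 and −0.01 with that scaling. Regions as a whole took 4.18% to 5.01% of counts in unactivated and 4.95% to 5.48% in activated WT libraries. In KO libraries they took 3.78% to 4.74% and 4.40% to 5.04%. The 2 states overlapped in each genotype through 1 library: WT clone unactivated replicate 2 (5.01%, others up to 4.66%) and KO1 unactivated replicate 2 (4.74%, others up to 4.33%). No named region below reversed its direction under either scaling. Groups did not overlap in 52 of the rises and 27 of the falls in WT lines, and in 85 and 19 in KO lines. In WT lines these are 5.43% and 2.82% of the members, beside 5.23% and 4.73% of all targets, and in KO lines 8.87% and 1.98%, beside 6.63% and 5.53%. Both lines alone made the call for 26 rises and 12 falls in WT and for 43 rises and 9 falls in KO lines.

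The region 38195 bases downstream of Spsb1, which encodes an adaptor of a ubiquitin ligase (chr4:149854000-149858088), was among the strongest. It had 0.363, 0.520 and 0.822 CPM in unactivated and 4.69, 8.79 and 9.99 CPM in activated WT libraries, and 0.477, 0.931 and 1.06 against 4.42, 6.98 and 8.44 CPM in KO libraries. Activated libraries lay above all unactivated ones. The log2 changes were 3.87 ± 0.27 (adjusted p = 7.62e-09) and 2.98 ± 0.26 (adjusted p = 1.15e-07). Regions inside Spsb1 had 0.120 ± 0.086 CPM in unactivated and 0.857 ± 0.26 CPM in activated WT cells.

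Near Huwe1, a ubiquitin ligase gene on the X chromosome (chrX:151779238-151782262), levels were 0 to 0.259 CPM in unactivated and 0.625 to 2.90 CPM in activated WT libraries, a log2 change of 4.68 ± 0.54 (adjusted p = 3.88e-06). An annotated 5S rRNA gene lies 1449 bases from this region. In KO lines it went from 0 to 0.157 CPM up to 0.363 to 1.19 CPM (4.31 ± 0.59, adjusted p = 2.52e-05). The region downstream of Gprin3 (chr6:59312736-59316524) rose by 3.37 ± 0.46 in WT and 2.65 ± 0.45 in KO lines (adjusted p = 2.56e-05 and 0.000271).

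A pair of members between Psma6, a proteasome subunit gene, and Nfkbia rose together. The one at chr12:55446425-55447680 (27966 bases from Psma6 and 41729 from Nfkbia) had 0.148, 0.373 and 0.561 CPM in unactivated and 2.05, 2.50 and 2.96 CPM in activated WT libraries, a log2 change of 2.76 ± 0.25 (adjusted p = 2.09e-07). The member closer to Nfkbia had 0.297, 0.567 and 0.727 CPM against the activated levels given above (2.22 ± 0.20, adjusted p = 1.69e-07). In KO lines the changes were 2.24 ± 0.25 and 1.88 ± 0.20 (adjusted p = 2.52e-06 and 1.33e-06). A difference between the genotypes in activation was not called for either (adjusted p = 0.695 and 0.800). The promoter of Nfkbia printed above holds the NF-kB motif, starting at base 222 of 300. The sequence of neither member could be read, and a link between the motif and these rises was not tested.

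The Ercc6l2 region rose in both genotypes, by 2.30 ± 0.24 in WT (adjusted p = 1.09e-06) and by 4.01 ± 0.26 in KO lines (adjusted p = 1.87e-09). The region upstream of Fbxw7, the substrate-binding part of a ubiquitin ligase that degrades MYC and cyclin E (chr3:84800876-84802906), had 0.206 to 0.406 CPM in unactivated and 1.33 to 3.87 CPM in activated KO libraries (3.15 ± 0.32, adjusted p = 9.98e-07), and in WT 0.134 to 0.351 and 0.357 to 1.55 CPM (2.17 ± 0.32, adjusted p = 6.15e-05). The Pdhx region rose by 3.11 ± 0.33 in KO lines (adjusted p = 1.32e-06) and by 1.48 ± 0.32 in WT lines (adjusted p = 0.00206). Another member near Pdhx, at chr2:102998771-102999796, named after its values were seen, had 0.0217 ± 0.0275 CPM in unactivated and 0.533 ± 0.103 CPM in activated KO cells.

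Falls were led by the region near Gm38821 (chr6:51329520-51331120), with 1.29, 1.56 and 2.74 CPM in unactivated and 0.316, 0.456 and 0.580 CPM in activated WT libraries (−1.89 ± 0.29, adjusted p = 7.80e-05), and it fell by 1.53 ± 0.29 in KO lines (adjusted p = 0.000748). Upstream of Noct, a circadian nocturnin gene (chr3:51195145-51197641), the level fell from a median of 1.48 to 0.451 CPM in WT (−1.87 ± 0.23, adjusted p = 6.67e-06) and from 0.865 to 0.200 CPM in KO lines (−2.28 ± 0.24, adjusted p = 1.27e-06). The KO clones differed from each other here, KO2 being higher by 1.57 ± 0.24 (adjusted p = 0.000946). The region downstream of Zeb2, a zinc finger repressor (chr2:44956046-44957914), fell from a median of 2.12 to 0.542 CPM in WT (−1.84 ± 0.29, adjusted p = 0.000103) and from 2.13 to 0.682 CPM in KO lines (−1.44 ± 0.28, adjusted p = 0.000993).

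**Figure D5:**
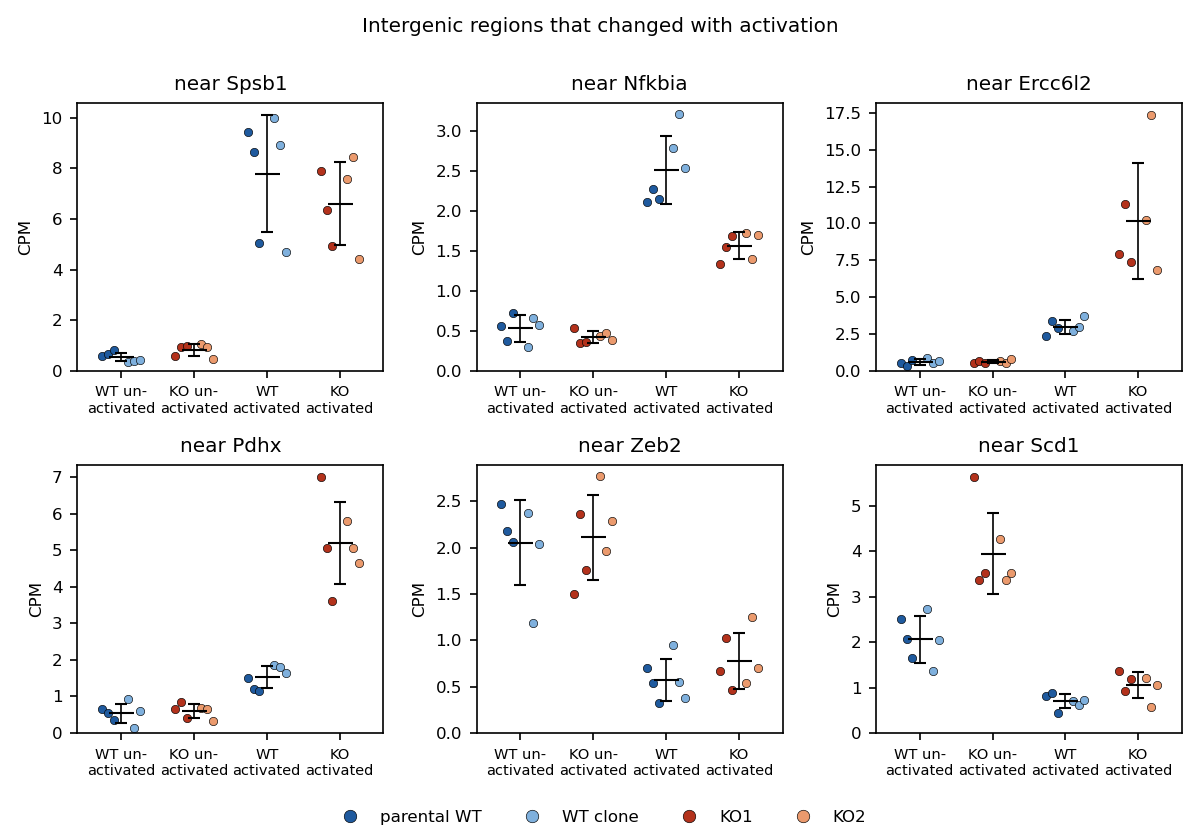
CPM of 6 regions in each library (points, colored by line), with the mean and SD of 6 libraries per genotype and state as bars. The regions near Spsb1, Nfkbia, Ercc6l2 and Pdhx are higher in activated libraries, with KO above WT near Ercc6l2 and Pdhx, and those near Zeb2 and Scd1 are lower in activated libraries.

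The region near Scd1, a stearoyl-CoA desaturase gene (chr19:44376223-44379570), fell with activation by 1.56 ± 0.23 in WT and 1.90 ± 0.23 in KO lines (adjusted p = 6.15e-05 and 6.89e-06). Its unactivated level was higher in KO, with 3.36, 3.52 and 5.64 CPM against 1.37, 2.06 and 2.74 CPM (0.93 ± 0.22, adjusted p = 0.0131). The region 29019 bases upstream of Smndc1, a splicing factor gene (chr19:53419720-53426308), had 5.49, 6.22 and 7.51 CPM in unactivated KO and 2.62, 3.30 and 3.99 CPM in unactivated WT libraries, and medians of 1.14 and 1.33 CPM when activated. It fell by 2.40 ± 0.19 in KO (adjusted p = 2.92e-08) and 1.35 ± 0.18 in WT lines (adjusted p = 2.48e-05). The Neu3 region fell by 2.23 ± 0.42 in WT (adjusted p = 0.000725) and by 1.92 ± 0.36 in KO lines (adjusted p = 0.000705).

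In WT lines, the region near Kif3c, a kinesin motor gene (chr12:3338644-3339711), fell by 1.35 ± 0.23 (adjusted p = 0.000227), with a change of −0.29 ± 0.22 in KO lines that was not called. The difference between those changes was not called (adjusted p = 0.146). The fall near the transcription factor gene Sp3 (chr2:73002817-73004955, −1.37 ± 0.44, adjusted p = 0.0349) went with parental WT unactivated replicate 3 and WT clone unactivated replicate 2: it was not called without either, or in 10 of 20 alternatives in all, with a smallest size of −0.84.

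Rises with activation in both genotypes were called for 67 members, 65.0% of the 103 and 43.8% of the 153, beside 63.9% and 58.8% over all targets. Falls in both were called for 23, which are 42.6% of the 54 and 62.2% of the 37, beside 58.8% and 68.9% over all targets. Rises in both took in 6.99% of members and 6.4% of all targets, and falls in both 2.40% and 6.02%. No member rose in one genotype and fell in the other. Over the first 4 comparisons, 312 of the 958 tested members were called at least once and 646 in none; the 312 are 32.6%, where 30.4% of all targets were called at least once.

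The test of whether activation differed between the genotypes called 7 members, 6 with a more positive change in KO lines and 1 with a more negative one. The 6 are 0.626% of those tested, where 0.766% of all targets were called, and the 1 is 0.104%, where 0.388% of all targets were called. Of all 11264 tested numbered regions, 0.568% had a more positive and 0.178% a more negative change called. With 7 calls, nothing is read from these shares.

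The largest of these differences was at the region between Egr1, an immediate early transcription factor gene, and Etf1, a translation termination factor gene (chr18:34886861-34889315). It had 0.555, 0.627 and 0.737 CPM in unactivated and 0.275, 0.428 and 0.754 CPM in activated WT libraries, but 0.0909, 0.247 and 1.43 CPM in unactivated and 0.767, 1.21 and 2.25 CPM in activated KO libraries. The activation change was larger in KO by 2.32 ± 0.45 on the log2 scale (adjusted p = 0.0120). The KO clones differed here, KO2 being higher by 1.50 ± 0.32 (adjusted p = 0.0208). At the Ercc6l2 region the difference was 1.71 ± 0.33 (adjusted p = 0.0126). The call held in all 30 alternatives for both regions, but none of these took single lines or summed counts per line. Near Etf1 the rise with activation was called in 1 of 2 KO lines, with log2 changes of 1.07 and 2.40. In activated cells KO against WT was called there in 2 of 4 line pairings. Near Ercc6l2 these calls were made in 2 of 2 KO lines and in 4 of 4 pairings.

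Dusp22, a phosphatase gene, and Irf4, a transcription factor that drives plasma cell differentiation, flank the third region (chr13:30724732-30730746, 13500 and 18487 bases away). It had 0.264 to 0.407 CPM in unactivated WT, 0.219 to 0.411 CPM in unactivated KO, 0.366 to 0.787 CPM in activated WT and 1.11 to 1.81 CPM in activated KO libraries. Activated KO libraries lay above all others. The difference in activation was 1.37 ± 0.32 (adjusted p = 0.0434) and was lost in 23 of 30 alternatives. Between the genotypes in activated cells the region was called in all 4 line pairings (1.31 ± 0.22, adjusted p = 0.000712). Regions inside Irf4 had 1.98 ± 0.37 CPM in activated WT and 3.67 ± 0.55 CPM in activated KO cells.

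The other called regions are named after their values were seen. Upstream of Sub1, a transcriptional coactivator gene (chr15:12007750-12011347), activation took the level from 4.80 ± 1.17 to 2.00 ± 0.536 CPM in WT (log2 change −1.30 ± 0.17, adjusted p = 2.04e-05), with 6.22 ± 1.30 and 6.17 ± 1.71 CPM in KO lines (−0.05 ± 0.17, adjusted p = 0.900). Upstream of Rbpj, the DNA-binding partner of Notch (chr5:53539792-53541221), the level was 0.808 ± 0.360 and 0.745 ± 0.0868 CPM in WT and rose from 0.526 ± 0.0970 to 1.13 ± 0.144 CPM in KO lines (1.10 ± 0.14, adjusted p = 1.32e-05). The differences in activation were 1.24 ± 0.24 at Sub1 (adjusted p = 0.0127), 1.12 ± 0.20 at Rbpj (adjusted p = 0.00695) and 1.36 ± 0.32 at the Iqgap1 region described above (adjusted p = 0.0429). The 1 negative difference was at a region near 4933402N22Rik (chr5:11958756-11959099), which was at 0.226 ± 0.114 and 0.406 ± 0.157 CPM in WT but fell from 0.877 ± 0.533 to 0.329 ± 0.130 CPM in KO lines (difference −2.23 ± 0.53, adjusted p = 0.0482). No member had a negative call in 14 of the 24 fits that leave out 1 library, namely those without parental WT unactivated 1 or activated 3, WT clone unactivated 2 or 3 or activated 3, KO1 unactivated 1 or 3 or activated 1, 2 or 3, or KO2 unactivated 2 or 3 or activated 1 or 2.

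Members near genes of 6 lists were counted next. Of all targets, 10% rose with activation in WT and 10.9% in KO lines, while 3.13% were higher and 4.03% lower in unactivated and 3.5% higher and 3.02% lower in activated KO cells, and with 1 to 9 tested members per list nothing is read from the counts beyond the members named. Near B cell identity genes there were 10 members, of which 8 were tested. Of these, 2 rose with activation in WT and 4 in KO lines, while 2 were lower in unactivated and 1 was higher in activated KO cells. Upstream of Syk, a kinase of B cell receptor signalling (chr13:52564916-52567296), the level went from 0.525 ± 0.201 to 1.36 ± 0.489 CPM in WT and from 0.712 ± 0.258 to 2.01 ± 0.557 CPM in KO lines (log2 changes 1.37 ± 0.30 and 1.52 ± 0.30, adjusted p = 0.00278 and 0.00111). The region downstream of Bcl11a, a lymphoid zinc finger gene, rose by 1.55 ± 0.36 and 1.16 ± 0.36 (adjusted p = 0.00449 and 0.0304).

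Irf8, a transcription factor of B cells and myeloid cells, had a called member on each side. The member 10117 bases upstream (chr8:120724012-120726241) was at 1.67 ± 0.445 CPM in WT and 0.996 ± 0.292 CPM in KO unactivated cells (−0.75 ± 0.19, adjusted p = 0.0184). The member 39351 bases downstream (chr8:120796045-120800905) was at 0.296 ± 0.114 and 0.112 ± 0.0596 CPM (−1.34 ± 0.32, adjusted p = 0.0124). Downstream of Foxo1, a transcription factor of B cell development, the activated level was 0.715 ± 0.166 CPM in WT and 1.50 ± 0.375 CPM in KO lines (1.07 ± 0.20, adjusted p = 0.00213).

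Near CD40 and NF-kB genes 6 of 11 members were tested, and the calls went both ways. The Nfkbia region is described above. Near Cd83, an activation marker of B cells (chr13:43760953-43770497), the level was 2.11 ± 0.316 CPM in WT and 3.34 ± 0.661 CPM in KO unactivated cells (0.66 ± 0.15, adjusted p = 0.00953), and 1.53 ± 0.302 and 3.65 ± 1.05 CPM in activated cells (1.20 ± 0.15, adjusted p = 3.15e-05). The region near Nfkbiz, an atypical NF-kB inhibitor gene, rose in unactivated KO cells from 0.0715 ± 0.0569 to 0.329 ± 0.175 CPM (2.06 ± 0.54, adjusted p = 0.0226).

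Near TGF-beta and SMAD genes 9 of 13 members were tested, and 3 of them rose with activation in WT and 3 in KO lines, while none was called between KO and WT. At an unadjusted p under 0.05, edgeR had 1 higher and 1 lower in unactivated and 3 higher and 0 lower in activated KO cells, and DESeq2 also called none at the adjusted threshold. Upstream of Runx3, a Runt-family factor needed for switching to IgA, the regions at chr4:135079644-135081251 and chr4:135072542-135074092 went from 0.0234 ± 0.0296 to 0.474 ± 0.169 CPM and from 0.122 ± 0.119 to 0.424 ± 0.128 CPM in WT (4.13 ± 0.68 and 1.87 ± 0.46, adjusted p = 0.000189 and 0.00593). In KO lines they rose by 3.66 ± 0.61 and 1.93 ± 0.46 (adjusted p = 0.000224 and 0.00495). The region upstream of Tgfbr2, a TGF-beta receptor gene (chr9:116216448-116220791), rose by 0.58 ± 0.16 in WT and 0.73 ± 0.16 in KO lines (adjusted p = 0.0123 and 0.00237).

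The other 3 lists held few members. Of 2 tested near the growth gene Odc1, ornithine decarboxylase, the upstream one (chr12:17505405-17511422) was at 1.62 ± 0.445 CPM in WT and 0.804 ± 0.357 CPM in KO unactivated cells (−1.01 ± 0.28, adjusted p = 0.0326), and fell with activation in WT lines (−1.12 ± 0.28, adjusted p = 0.00680), with a change of −0.44 ± 0.28 in KO lines that was not called. The downstream one rose with activation in KO lines (1.61 ± 0.41, adjusted p = 0.00835). Near plasma cell genes 2 of 6 members were tested, both near Ell2, an elongation factor gene. The single member near a class switch gene lies 21882 bases upstream of Zmynd8 itself. None of these 3 was called in the first 4 comparisons by edgeR or DESeq2, and 0 of them had an unadjusted p under 0.05.

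Members often lay close together. With gaps of at most 10 kb, 501 of the 2015 members fell into 223 chains of 2 or more, the longest with 6 members near Bmp2k, a BMP-inducible kinase gene, and 1514 stood alone. Members of a chain may share a transcript, so they are not separate replicates. Near Bhlhe40, the paralog of Bhlhe41, a chain of 4 had 3 tested members, of which 2 rose with activation in WT and 3 in KO lines. The one at chr6:108694917-108696818 went from 0.371 ± 0.132 to 1.09 ± 0.135 CPM in WT and from 0.406 ± 0.101 to 1.46 ± 0.152 CPM in KO lines (1.56 ± 0.21 and 1.85 ± 0.21, adjusted p = 2.31e-05 and 3.32e-06). No member of that chain was called between KO and WT.

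Shares called did not rise or fall steadily with distance. In unactivated KO against WT, the calls took in 6.90%, 9.12%, 6.80% and 10.4% of tested members at 10 to 20, 20 to 30, 30 to 40 and 40 to 50 kb, and in activated cells 9.52%, 8.42%, 6.12% and 11.3%. With activation in WT lines the shares were 13.8%, 16.8%, 21.1% and 18.9%. By length, 8.87%, 12.0% and 3.93% of the longest, middle and shortest members were called in activated KO against WT, where the shortest had a median level of 0.112 CPM and the longest 0.331 CPM. These shares carry no test.

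Lines of one genotype were compared as well. Between the WT clone and parental WT 11 members were called, 1.15% of those tested, where 1.49% of all targets were called. Between KO2 and KO1 the count was also 11 (2 higher and 9 lower in KO2), where 0.968% of all targets were called. Both are below the 76 and 85 members called between the genotypes, although those comparisons pool the lines and these average over both states.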

How the data were processed

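Ribosome-depleted total RNA of 24 CH12 libraries was sequenced single-end from stranded libraries, per the labels' protocols. The deposited tables hold estimated counts (expected counts that need not be whole), made by the authors with kallisto 0.43.0, for 171152 targets: 121400 transcripts, the numbered regions and 7 Igh elements. GRCm38.p5 and DESeq2 are also named, per the submitters' processing notes. How the numbered regions were drawn, and whether both strands were counted, is not given in the sources used here; kallisto shares reads among similar targets, so regions near pseudogenes or in gene families are uncertain. The other 9 samples of the series were not analysed here.

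Estimated counts were rounded and tested with edgeR 4.0.16 (quasi-likelihood, R 4.3.3) over all 24 libraries with 8 group means, trimmed mean of M values scaling, filterByExpr by group and Benjamini-Hochberg adjustment over the 61074 targets kept. DESeq2 1.42.0 was an alternative. A genotype contrast averages 2 lines against 2. Gene positions and promoter sequences came from RefSeq tables of GRCm38. No genome was used, so the planned motif search in the regions was run on promoter windows alone. The named regions are the 6 largest changes each way in the first 3 comparisons and the 3 largest in activation of KO lines and in the interaction, among called members averaging 1 CPM or more in either group and, outside the interaction, the same sign in every line or pairing; the 5 members with the most counts, all called interaction members and members near listed genes were added. A named region that this rule gives is not reported here. Members and lists were chosen with earlier results of these data known. The fit was tested on simulated data of the unactivated comparison, in which 1.25% of the calls were false (58182 targets). Alternatives changed the scaling, tool, filter, libraries, lines, targets fitted, count minimum and replicate block. Repeats of a group differed by more than sampling noise (chi-square per degree of freedom 9.88 to 66.5 over 24 pairs), and all were kept.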

Additional observations from a re-analysis of the deposited data

Results flagged for a closer look

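In 156 sets of 6 libraries, 17 had a highest or lowest library whose gap to the next exceeded 0.625 of the range. Chance would give about 7.8 if the sets were independent. They share the same libraries, so the 17 cannot be weighed against that number. In unactivated WT, WT clone replicate 2 was the highest for the Rock1 region (1709 CPM, others 2.47 to 340.3), for the Zfp395 region (26.9 CPM, others 0.198 to 7.52), for the Slco4a1 region (0.924 CPM, others up to 0.301) and for the sum over the members (2836 CPM, others 802 to 1360), and the lowest for the Zeb2 region (1.18 CPM, others 2.04 to 2.47). In activated WT, parental WT replicate 2 was the highest for the Rock1 (299.5 CPM), Zfp395 (7.65 CPM), Sp3 (0.882 CPM), Iltifb (66.9 CPM) and Klra5 (50.9 CPM) regions and for the sum (1243 CPM, others 859 to 964). These are 2 of the 3 libraries that stand apart.

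Single libraries of other groups were also far from the rest. The Slc22a12 region was at 1.96 CPM in KO2 unactivated replicate 1 (others 0.789 to 1.12), and the Smndc1 region at 2.06 CPM in KO2 activated replicate 3 (others 0.841 to 1.24). The Unc93a region was at 1.27 CPM in KO2 activated replicate 1 (others 2.00 to 2.39). The Rps3 region was at 1.42 CPM in parental WT activated replicate 1, the Gm38821 region at 2.74 CPM in parental WT unactivated replicate 1, and the Minpp1 region at 26.6 CPM in parental WT activated replicate 3.

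Activation differed between the genotypes, by the interaction term in edgeR, at 7 members. On the log2 scale, KO minus WT, the differences were 2.32 near Etf1, 1.71 near Ercc6l2, 1.37 near Dusp22, 1.36 near Iqgap1, 1.24 near Sub1, 1.12 near Rbpj and −2.23 near 4933402N22Rik, where no negative difference was called in 14 of 24 fits without 1 library.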

How the results depend on the processing

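Relative log expression scaling, a minimum of 100 summed counts and leaving out the 3 libraries that stand apart (the last chosen after seeing the data) kept every count of calls within 1.5 times. Higher and lower members in unactivated KO against WT were 26 and 10 with KO1 alone, 29 and 16 with KO2 alone, 19 and 12 against parental WT alone, 28 and 16 with no low-count filter, 29 and 11 with only the libraries of the comparison, and 2 and 0 with counts summed per line (edgeR, 80 lower at an unadjusted p under 0.05); 27 were higher against the WT clone alone. In activated cells they were 40 and 2 with KO1 alone, 36 and 6 against parental WT alone, 48 and 7 with no filter, and 7 and 0 with sums per line (edgeR, 48 lower at an unadjusted p under 0.05); 43 were higher against the WT clone alone, and 30 were lower on regions alone and 17 by DESeq2. With activation in WT lines, 63 rose and 33 fell with only the libraries compared, 43 and 18 with sums per line, and 95 fell on regions alone. In KO lines these were 63 and 16 with sums per line and 95 and 115 on regions alone. Over all 78950 targets, sums per line gave 2888 rises and 3221 falls in WT and 3161 and 2924 in KO lines. The interaction gave 3 positive and 0 negative members with no filter (edgeR, 41 negative at an unadjusted p under 0.05), 11 and 3 by DESeq2, and 3 negative on regions alone. The cause of these shifts was not tested. Leaving out each library gave 29 to 44 higher and 20 to 30 lower in unactivated and 54 to 63 and 6 to 11 in activated KO cells, 80 to 118 rises and 43 to 55 falls in WT and 126 to 157 and 31 to 37 in KO lines, and 4 to 6 positive and 0 to 1 negative interactions. The 0 came in 14 of 24 fits (edgeR, 16 to 24 negative at an unadjusted p under 0.05). Of 42 named results 22 kept their call in every alternative and 0 reversed. For the interaction the alternatives held no fit by line. The nearest gene of any type in the rule gave 1861 members.

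Replicate numbers were not taken to pair the libraries, since the labels give no pairing. In the data, 18 of 84 same-numbered pairs had deviations correlated over 0.1 (−0.33 to 0.30, median 0.05). Of 168 pairs with other numbers 10 were over 0.1 (−0.37 to 0.52, median −0.03), and 16 of 24 libraries were closest to their own number, a hint of pairing from the data that the labels do not give. With the replicate block, 2 interactions were negative, and the other counts stayed within 1.5 times. Low depth limits the members: 1057 of 2015 were not tested.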
